A study of Homo sapiens with 6 samples.

Results

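CDA, DCTD, ADA and HPRT1 are 4 enzymes of nucleoside metabolism that were targeted among 912 genes in a pooled shRNA screen for the response to azacitidine (AZA). They were taken by their gene symbols in the 6 count files. Each gene had 8 short hairpin RNAs (hairpins), and all 32 were counted in every library. SKK-1, an established human cell line from acute myeloid leukemia that arose from a myelodysplastic syndrome, was transduced in 3 cultures with a lentiviral library of 7296 hairpins at a low viral titre and selected with puromycin. Each culture was then divided in 2 arms. One stayed untreated and the other received AZA at 0.25 µM once every 2 days, and DNA was isolated from both at day 14 (untreated replicates 1 to 3 and AZA replicates 1 to 3). Both arms therefore carried the library and had gone through puromycin. Guide strands were amplified from the genomic DNA and sequenced, and a level is given here as CPM, the hairpin's counts scaled to the library's total. It stands for the share of hairpin copies in the culture, not for mRNA, and knockdown of the 4 genes was not measured in these data.

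AZA is a cytidine analogue that cells phosphorylate and build into RNA and, after reduction, into DNA, where it traps DNA methyltransferases. Cytidine deaminase (CDA) removes the amino group of cytidine, deoxycytidine and analogues such as AZA, which ends the activity of the drug, and dCMP deaminase (DCTD) does the same to the deoxycytidine monophosphates. Adenosine deaminase (ADA) converts adenosine and deoxyadenosine to inosine and deoxyinosine, and hypoxanthine-guanine phosphoribosyltransferase (HPRT1) returns the hypoxanthine and guanine that arise from purine breakdown to the nucleotide pool.

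On GRCh38 with GENCODE release 44, CDA lies at chr1:20589086-20618903 on the plus strand, DCTD at chr4:182890060-182917936 on the minus strand, ADA at chr20:44584896-44652252 on the minus strand and HPRT1 at chrX:134460165-134520513 on the plus strand. The guide strands of the 24 hairpins against CDA, DCTD and ADA were read from the library's composition table. All 24 are 22 bases long and begin with T, they carry 24 different seeds, and their G and C content runs from 5 to 12 bases. No guide matched a transcript of another gene in full. All 8 ADA sites lie in the coding sequence, whereas 2 CDA sites and 3 DCTD sites are coding and 5 of each gene lie in the 3′ untranslated region. The remaining CDA guide, CDA.940, matches the MANE transcript of 809 bases only over that transcript's last 16 bases. Its full target was found in no annotated transcript and not in GRCh38, and its counts are part of the CDA sum. The places of all sites refer to the MANE transcript. Sites present in every annotated coding transcript of their gene numbered 7 for CDA, 0 for DCTD and 3 for ADA. CDA has only 1 annotated coding transcript, so these numbers do not compare the genes. ADA has 25, and its other sites lie in 18 to 24 of them. The DCTD sites in the 3′ untranslated region lie in 2 of its 10 coding transcripts. The guides below are shown because their sites overlap, so that cells with different hairpins were aimed at nearly the same stretch of one mRNA. They are written 5′ to 3′ with the seed, bases 2 to 8, in capitals.
ADA.984: tGAGCGAGtagttagcctggtc
ADA.985: tTGAGCGAgtagttagcctggt
ADA.802: tTGAGTATgtccacagcctctt
ADA.808: tCTGTCTTgagtatgtccacag
CDA.911: tAATTAGAaaagttgctcggaa
CDA.913: tATAATTAgaaaagttgctcgg
CDA.915: tTTATAATtagaaaagttgctc

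ADA.984 and ADA.985 target exon 10 at chr20:44621116-44621137 and chr20:44621115-44621136 and share 21 of 22 bases. ADA.802 and ADA.808 share 16 bases, and ADA.802 spans exons 7 and 8. The CDA guides stand in exon 4, in the 3′ untranslated region, at chr1:20618859-20618880, chr1:20618861-20618882 and chr1:20618863-20618884, each 2 bases on from the one before.

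The libraries held 12292575 to 22587662 counts, and the median hairpin had 1229 to 2511 counts. Of 7293 hairpins seen in the pool, 7070 had a count in every library. Libraries of one group differed far beyond counting error (chi-square per degree of freedom 438 to 906). Together the 32 hairpins took 0.309%, 0.333% and 0.474% of the counts in the untreated and 0.392%, 0.387% and 0.400% in the AZA libraries.

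Summed over its 8 hairpins, none of the 4 genes differed between AZA and untreated cultures beyond the spread between replicates. The fitted fold change was 0.994 for CDA, 1.09 for DCTD, 0.818 for ADA and 1.39 for HPRT1. The libraries of both groups overlapped for all 4 genes, whereas they did not overlap for 18.5% of the 912 genes. When the summed counts were tested with edgeR's quasi-likelihood method, 0 of the 4 genes had an adjusted p under 0.05, beside 1.21% of all genes (11 of 912), and 0 of 4 had an unadjusted p under 0.05, beside 11.6%. The median log2 fold change of all genes was -0.015.

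**Figure D1:**
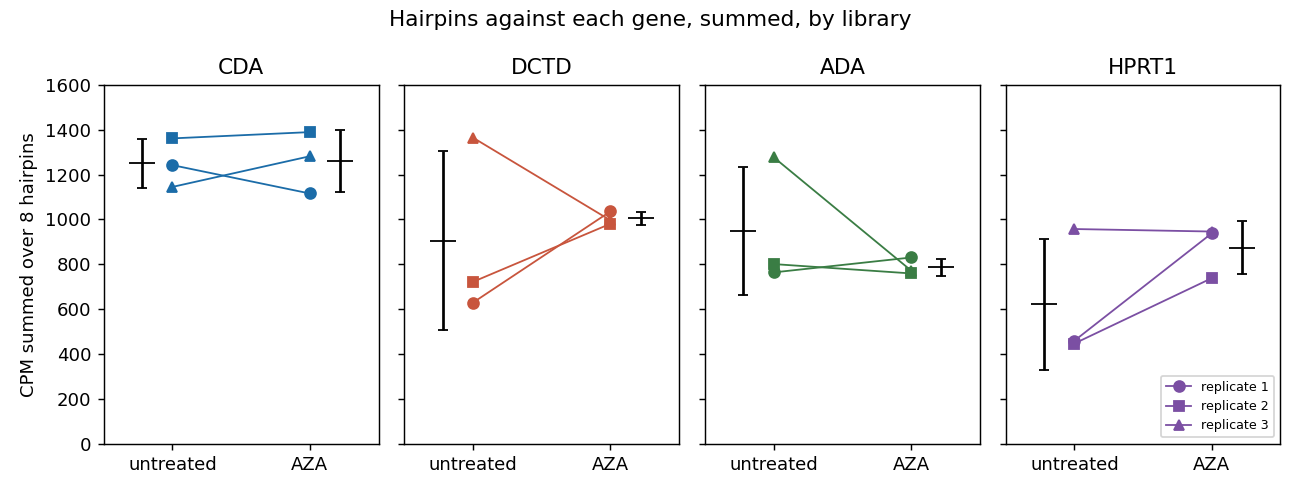
CPM summed over the 8 hairpins of each gene (vertical axis, from 0) in the untreated and AZA libraries; lines join the arms of one culture, and the bars beside them are mean ± SD (n = 3). CDA stays between 1116 and 1390 CPM, while for DCTD, ADA and HPRT1 the untreated replicate 3 stands above the other 2 untreated libraries.

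The hairpins against CDA, the enzyme that inactivates the drug, summed to 1242, 1362 and 1145 CPM in untreated replicates 1 to 3 and to 1116, 1390 and 1282 CPM in AZA replicates 1 to 3. The AZA arm was lower in culture 1 and higher in the others. The means were 1250 ± 108 and 1262 ± 138 CPM (SD, n = 3 each), with a log2 fold change of -0.0092 ± 0.18 SE (edgeR adjusted p = 0.983). The 95% interval, -0.39 to 0.37, corresponds to a change from 0.764-fold to 1.29-fold in the summed hairpins. This is the narrowest interval of the 4 genes. The sign of so small a value depends on the scaling, since with library totals in place of TMM factors it was 0.015.

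On file totals no CDA hairpin moved one way in all 3 cultures. CDA.915 was the most abundant of them in 5 of the 6 libraries, with 401, 433 and 410 CPM untreated and 183, 352 and 441 CPM under AZA. Its AZA arm was lower in cultures 1 and 2 and higher in culture 3, and with the TMM factors of the fit it was lower in all 3 (-1.26, -0.49 and -0.062 on the log2 scale). The log2 fold change of -0.51 ± 0.36 SE was the lowest of the gene (edgeR adjusted p = 0.991), and it was -0.23 without AZA replicate 1 and -0.80 without AZA replicate 3. CDA.537, in the coding sequence, had the highest value, 0.66 ± 0.96 SE (edgeR adjusted p = 0.997), with 62.0, 6.04 and 115 CPM untreated and 143, 112 and 67.2 CPM under AZA. Its untreated libraries spread over a range of 19.0-fold and its AZA libraries over 2.13-fold. Its value was 0.13 without untreated replicate 2, 0.40 without AZA replicate 1, 1.53 without untreated replicate 3 and 1.31 with the culture as a replicate block. CDA.730 was the steadiest abundant hairpin, at 263, 247 and 225 CPM untreated and 194, 342 and 202 CPM under AZA. Over the 8 hairpins the mean log2 fold change was -0.027 and the median -0.14, beside a median of -0.096 for all hairpins tested. Of the 8 values 6 were below 0, beside 54.9% of all hairpins. With the culture as a replicate block 4 of the 8 were, beside 46.1%.

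The hairpins against DCTD, which acts on deoxycytidine monophosphates, summed to 629, 722 and 1365 CPM in the untreated libraries and to 1036, 981 and 996 CPM under AZA. The treated cultures lay close together (1004 ± 28.6 CPM, SD, n = 3), and the untreated ones were spread widely around them (905 ± 400.5 CPM, n = 3). The log2 fold change was 0.13 ± 0.26 SE with an interval of -0.42 to 0.68 (edgeR adjusted p = 0.882). Untreated replicate 3 set this value. Without it the log2 fold change was 0.54 ± 0.23 (unadjusted p = 0.0306, edgeR adjusted p = 0.242), and without untreated replicate 1 or 2 it turned to -0.083 or -0.0100. In the fit without untreated replicate 3, 145 of the 912 genes had an unadjusted p under 0.05.

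DCTD.1391 had the lowest fitted value of the gene, -1.90 ± 0.99 SE (edgeR adjusted p = 0.898). It was counted at 29.4, 85.4 and 233 CPM untreated and 42.0, 53.3 and 9.61 CPM under AZA. The third culture carried this difference, where 4580 counts in the untreated arm stood against 217 in the AZA arm, and in culture 1 the AZA arm was the higher. Without untreated replicate 3 the value was -0.89. DCTD.1648 had the highest value, 0.75 ± 1.07 SE (edgeR adjusted p = 0.997), from 18.4, 10.7 and 85.8 CPM to 45.2, 105 and 65.7 CPM. It was 2.15 without untreated replicate 3, 0.41 without untreated replicate 1, 0.31 without untreated replicate 2, 0.36 without AZA replicate 2 and 1.23 with the block. DCTD.1625, the most abundant hairpin of the gene in all 6 libraries, was the only one of the 8 that moved one way in each culture. It stood at 232, 243 and 324 CPM untreated and at 390.3, 302 and 375 CPM under AZA, and its log2 fold change was 0.25 ± 0.34 SE (edgeR adjusted p = 0.997), or 0.15 without untreated replicate 1 and 0.42 without untreated replicate 3. DCTD.466 had the widest range of the gene among untreated libraries, with 62.8, 14.4 and 2.70 CPM in the untreated and 39.2, 64.0 and 31.1 CPM in the AZA libraries.

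The hairpins against ADA summed to 764, 801 and 1277 CPM in the untreated and to 830, 759 and 772 CPM in the AZA libraries. On the log2 scale the AZA arm differed from its untreated arm by 0.12 in culture 1, by -0.077 in culture 2 and by -0.73 in culture 3, so the difference lay in the third. The means were 947 ± 286 and 787 ± 37.9 CPM (SD, n = 3 each) and the log2 fold change was -0.29 ± 0.25 SE, with an interval of -0.80 to 0.22 (edgeR adjusted p = 0.668). Without untreated replicate 3 it was -0.019 (edgeR adjusted p = 0.979).

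Within ADA, 4 of the 8 hairpins moved one way in all 3 cultures on file totals, 2 in each direction. With TMM factors ADA.808 was also lower in each, by a smallest step of -0.036. ADA.985 had the lowest fitted value of the 32 hairpins. It was counted at 167, 140 and 93.7 CPM untreated and at 22.5, 47.1 and 27.4 CPM under AZA, so that every treated library lay below every untreated one. The log2 fold change was -2.21 ± 0.76 SE with an interval of -3.86 to -0.55 (unadjusted p = 0.0132, edgeR adjusted p = 0.751). ADA.310 was lower in each culture too, at 69.9, 99.6 and 248 CPM untreated and 46.5, 95.1 and 82.7 CPM under AZA, but its groups overlapped (-1.06 ± 0.71 SE, edgeR adjusted p = 0.983). ADA.372 was higher in each culture and without overlap, at 75.1, 60.3 and 33.2 CPM untreated and 117, 137 and 82.5 CPM under AZA (0.84 ± 0.74 SE, edgeR adjusted p = 0.991). ADA.984 was likewise higher in each culture, at 104, 83.4 and 29.2 CPM untreated and 137, 105 and 107 CPM under AZA (0.53 ± 0.73 SE, edgeR adjusted p = 0.997). Without untreated replicate 3 the value of ADA.310 was -0.35 and that of ADA.984 was 0.15, and without untreated replicate 1 that of ADA.984 was 0.86. The mean over the 8 hairpins was -0.42 and the median -0.45, and without untreated replicate 3 these were -0.21 and -0.065.

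HPRT1, the purine salvage enzyme, had the lowest summed level of the 4 genes in every untreated library, 459, 447 and 957 CPM, and reached 938, 738 and 946 CPM under AZA. The AZA arm was higher in cultures 1 and 2, and in culture 3 the arms were nearly level. The means were 621 ± 291 and 874 ± 118 CPM (SD, n = 3 each), and the log2 fold change of 0.47 ± 0.30 SE had an interval of -0.16 to 1.10 (edgeR adjusted p = 0.541). With the culture as a replicate block, which compares the arms of each culture, it was 0.56 ± 0.27 (unadjusted p = 0.0559, edgeR adjusted p = 0.374). Without untreated replicate 3 it was 0.92 ± 0.27 (unadjusted p = 0.00337, edgeR adjusted p = 0.0931), and without untreated replicate 1 or 2 it was 0.29 or 0.28. In the fit without untreated replicate 3, 145 of the 912 genes had an unadjusted p under 0.05 and 15 were called after adjustment.

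HPRT1.692 had the highest fitted value of the 32 hairpins and the smallest p among them, rank 87 of 7262. Its levels were 39.1, 14.0 and 32.0 CPM untreated and 108, 232 and 157 CPM under AZA, with no overlap between the groups. The log2 fold change was 2.39 ± 0.76 SE with an interval of 0.74 to 4.05 (unadjusted p = 0.00853, edgeR adjusted p = 0.694). HPRT1.466 was also higher in each culture without overlap, at 56.2, 36.2 and 43.6 CPM untreated and 145, 171 and 61.7 CPM under AZA (1.32 ± 0.76 SE, edgeR adjusted p = 0.944). HPRT1.1216 was higher in each culture by a small step on file totals, which turned to -0.085 in culture 2 with TMM factors, at 136, 68.9 and 221 CPM untreated and 181, 74.3 and 274 CPM under AZA, and here the spread between cultures was far larger than the step (0.16 ± 0.63 SE, edgeR adjusted p = 0.997).

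HPRT1.1040 had a value below 0 in the fit, and 1 library set its sign. It was counted at 36.0, 10.4 and 388 CPM untreated and at 109, 53.6 and 96.8 CPM under AZA, so that 7613 counts in untreated replicate 3 made up 40.5% of all HPRT1 counts there (exact 95% binomial interval 39.8 to 41.2%, counting error only). Its log2 fold change was -0.90 ± 1.05 SE (edgeR adjusted p = 0.997), 0.66 with the culture as a block, and 1.76 without untreated replicate 3. The mean over the 8 HPRT1 hairpins was 0.53, or 0.81 with the block. Under the block 7 of the 8 hairpins had a value above 0, beside 53.9% of all hairpins, and without it 5 of 8, beside 45.1%.

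**Figure D2:**
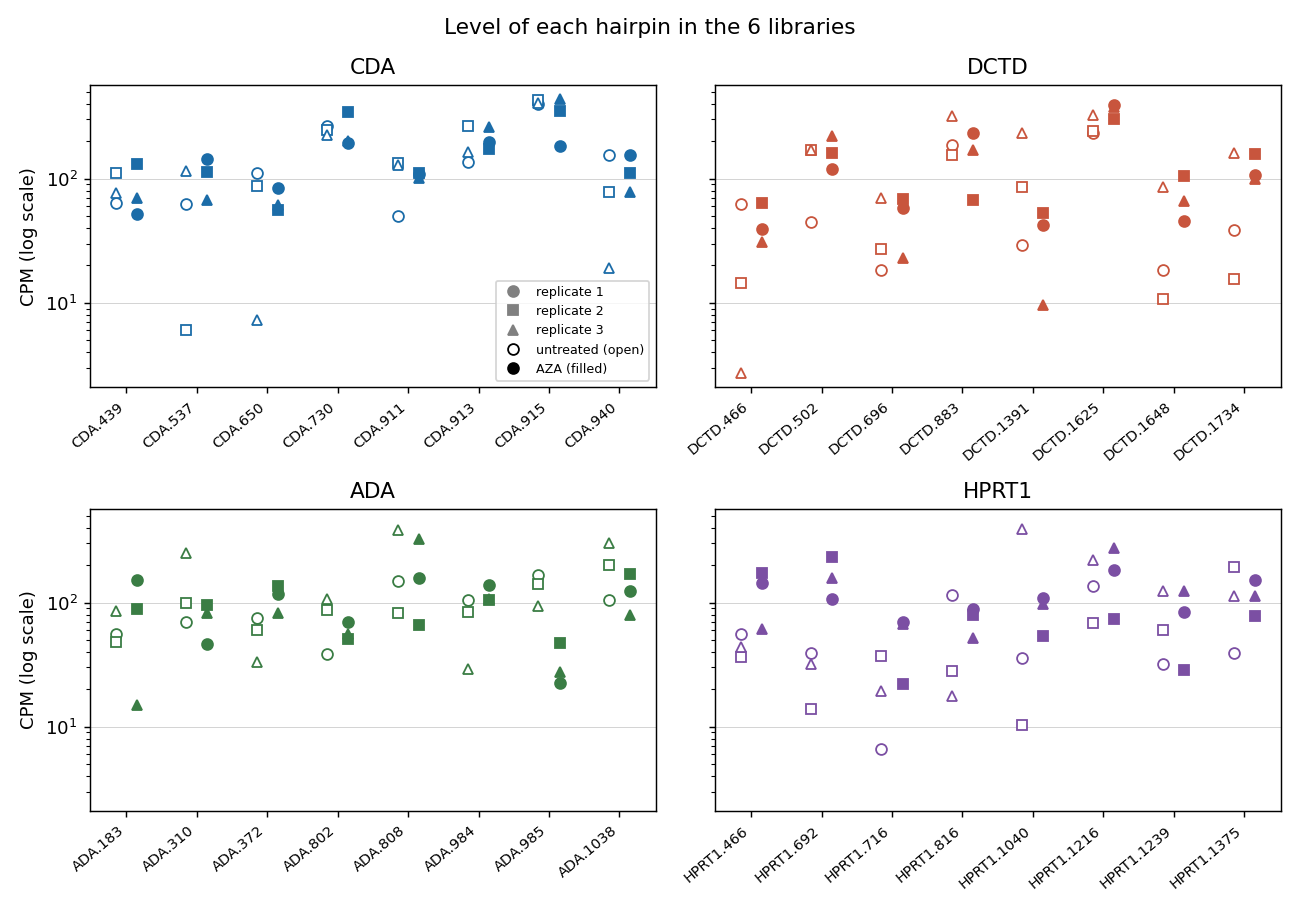
CPM of each of the 32 hairpins on a log axis, with open symbols for untreated and filled symbols for AZA libraries and one symbol shape per replicate. Open symbols spread more widely than filled ones for most hairpins. The groups do not overlap for ADA.985, downward, and for ADA.372, ADA.984, HPRT1.466 and HPRT1.692, upward. Of all hairpins, 4.31% and 9.17% show this.

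Hairpin by hairpin, edgeR's quasi-likelihood method called 0 of the 32 at an adjusted p under 0.05, beside 0.0689% of all hairpins (5 of 7262). ADA.985 and HPRT1.692 had an unadjusted p under 0.05, which is 6.25% of the 32 beside 5.62% of all hairpins. The edgeR exact test also called 0 of the 32. The DESeq2 Wald test called the same pair, ADA.985 at an adjusted p of 0.0287 and HPRT1.692 at 0.0196, where it called 1.88% of the hairpins it tested. The call of these 2 hairpins thus rested on the tool.

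Under AZA, 2 of the 32 hairpins were lower in all 3 cultures (ADA.310 and ADA.985), where 10.7% of all hairpins were, and 6 were higher in all 3 (DCTD.1625, ADA.372, ADA.984, HPRT1.466, HPRT1.692 and HPRT1.1216), where 19.0% of all were. These counts are on file totals. With TMM factors CDA.915 and ADA.808 joined the lower ones and HPRT1.1216 left the higher ones, which made 4 and 5 of the 32, beside 14.8% and 14.4% of all hairpins. Every AZA library lay below every untreated one for 1 of the 32, against 4.31% of all hairpins, and above for 4 of the 32, against 9.17%. These shares were near those of all hairpins, and nothing is read from them about the 4 genes.

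**Figure D3:**
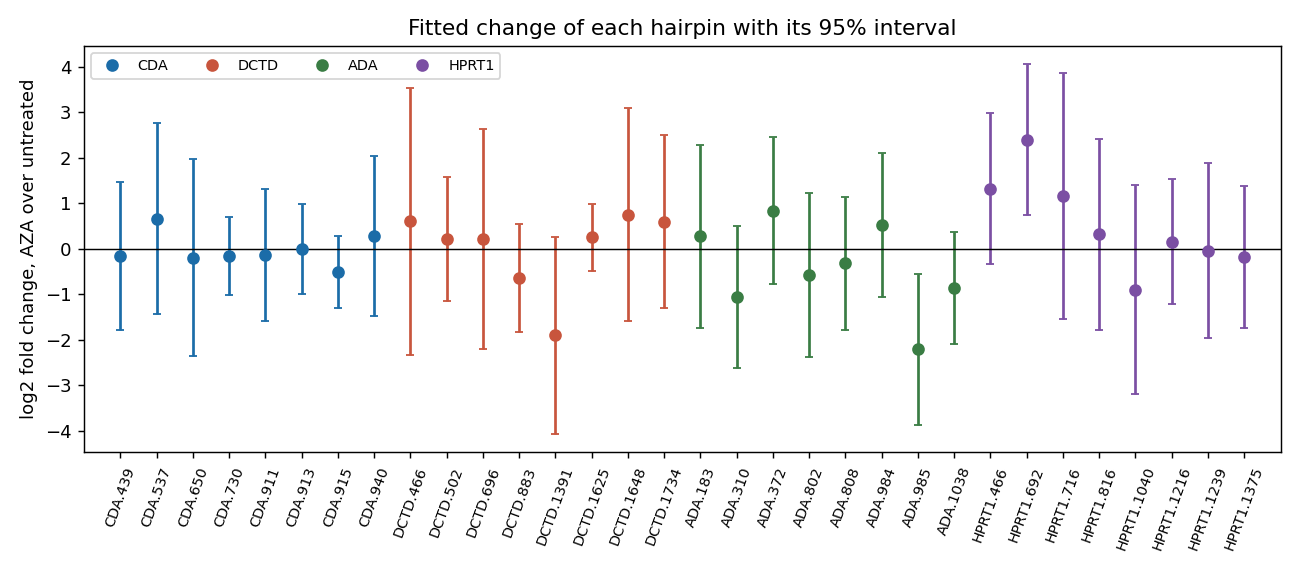
Fitted log2 fold change of AZA over untreated (vertical axis) for each of the 32 hairpins with its 95% interval, coloured by gene. Only the intervals of ADA.985 and HPRT1.692 leave out 0, and neither passes after adjustment over all 7262 hairpins.

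The overlapping sites allowed hairpins to be compared within a library, as the log2 ratio of their CPM, which needs no scaling between libraries. ADA.985 exceeded ADA.984 in the 3 untreated libraries, by 0.69, 0.75 and 1.68, and fell short of it in the 3 AZA libraries, at -2.61, -1.15 and -1.96. The mean ratio thus went from 1.04 ± 0.56 to -1.91 ± 0.73 (SD, n = 3 each), a difference of -2.95 that appeared in 3 of 3 cultures. The exact two-sided permutation p was 0.1, the smallest that 3 against 3 libraries can give, and 0.5 after adjustment over the 5 pairs compared. The permutation shuffled all 6 libraries and did not keep the arms of a culture together. Guides that share 21 of 22 target bases, with seeds that differ in register by 1 base, hence stood in opposite order with and without the drug. The ratio uses the same counts that put these hairpins among those without overlap above, so it is no further evidence. How often other hairpins of one gene change order in this way was not counted.

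The other overlapping pairs kept their mean order. CDA.915 exceeded CDA.911 by 2.12 ± 0.75 untreated and 1.52 ± 0.69 under AZA, a difference of -0.61 (exact permutation p = 0.4, adjusted p = 0.667). CDA.915 over CDA.913 went from 1.19 ± 0.43 to 0.55 ± 0.59 (exact permutation p = 0.3, adjusted p = 0.667). CDA.913 over CDA.911 was 0.93 ± 0.54 and 0.96 ± 0.36, and ADA.808 over ADA.802 was 1.23 ± 1.14 and 1.36 ± 1.10 (exact permutation p = 1 for both). The SD of the ratio for ADA.802 and ADA.808 was above 1 in both groups, although the sites share 16 bases.

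**Figure D4:**
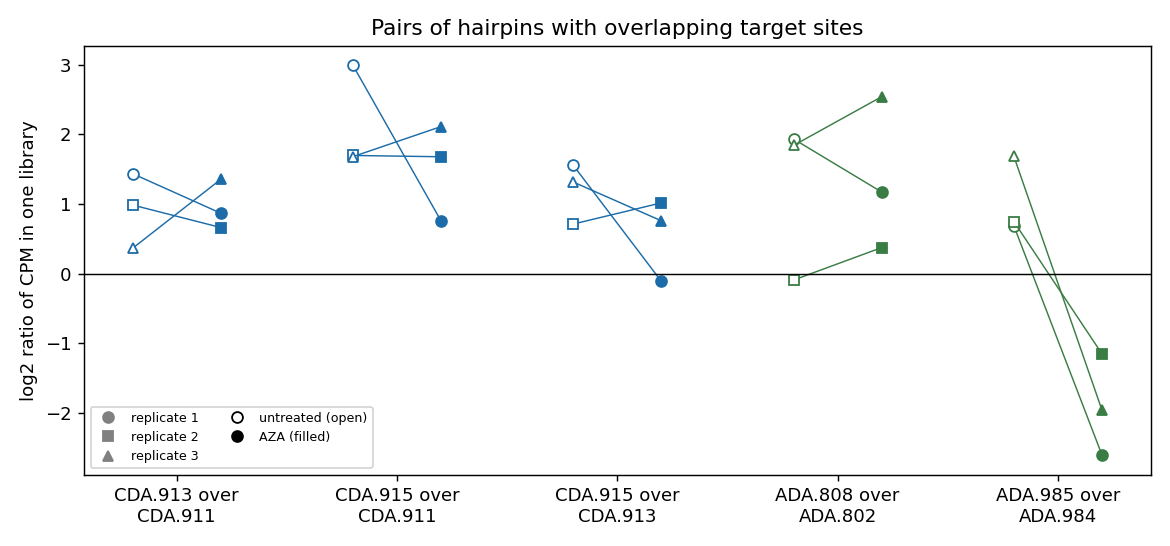
Log2 ratio of CPM between hairpins with overlapping target sites in each library (vertical axis), with lines joining the arms of a culture. The ratio of ADA.985 to ADA.984 crosses 0 in all 3 cultures, and the other 4 pairs show mixed directions.

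The spread between cultures differed between the groups for these hairpins as for the rest of the pool. The SD of log2 CPM was larger without drug for 22 of the 32 hairpins (68.8%) and for 72.7% of all hairpins counted in every library. Its median over the 32 was 0.962 untreated and 0.551 under AZA, beside 0.912 and 0.556 for the pool. DCTD had the widest untreated spread (median SD 1.31) and CDA the narrowest (0.643). The largest range of a hairpin among untreated libraries was 37.4-fold, for HPRT1.1040, and the largest among AZA libraries was 10.3-fold, for ADA.183.

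Untreated replicate 3 stood apart for 3 of the 4 genes. Its summed level was 2.02 times the mean of the other 2 untreated libraries for DCTD, 1.63 times for ADA and 2.11 times for HPRT1, and 1.43%, 6.14% and 1.10% of all genes were at or above those ratios. For CDA it was 0.880 times, near the 1.00 of the median gene. Of the 32 hairpins, 16 were highest among the untreated libraries in replicate 3, with 7 of the 8 DCTD hairpins among them, whereas 33.8% of all hairpins were. The part of this library in the gene values is given above by the fits without it.

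The place of the target site in the mRNA was set beside the fitted values. The 3 coding DCTD sites had values of 0.21 to 0.61, all above 0, and the 5 sites in its 3′ untranslated region ran from -1.90 to 0.75. For CDA the 5 sites in the 3′ untranslated region ran from -0.51 to -0.010 and the 2 coding sites had -0.16 and 0.66. In ADA the 8 coding sites covered the whole range from -2.21 to 0.84. The SE of most of these values exceeded the value itself, so no order by region could be read from them. No guides of HPRT1 were placed here.

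**Figure D5:**
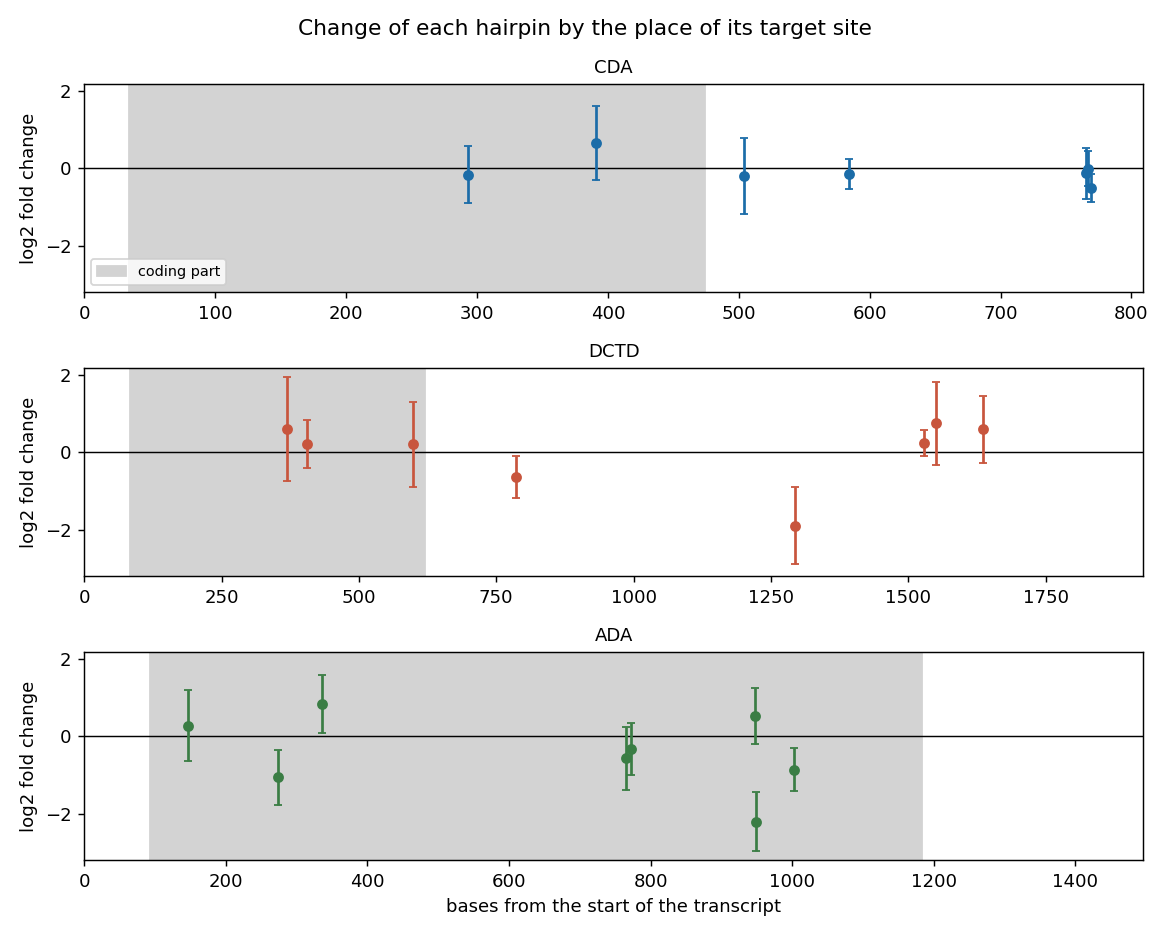
Log2 fold change ± SE of the hairpins against CDA, DCTD and ADA (vertical axis) by the start of the target site in the MANE transcript (horizontal axis, bases from the transcript start), with the coding part shaded. ADA.984 and ADA.985 share one place and lie on opposite sides of 0. CDA.940 is not drawn because its full target was not found in the MANE transcript.

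Related genes of the library were described by counts. Of 20 genes of the deaminase family, 5 were in the library and 0 were called by edgeR on summed counts, while 1 had an unadjusted p under 0.05; over all genes these shares were 1.21% and 11.6%. Their median log2 fold change was -0.13, beside -0.015 for all genes, from -0.37 ± 0.27 SE for ADAR, which deaminates adenosine in double-stranded RNA (edgeR adjusted p = 0.600), to 0.63 ± 0.24 for APOBEC4 (edgeR adjusted p = 0.324). For nucleoside uptake and metabolism, 51 gene symbols were looked up, among them the transporters and the kinases that activate AZA. None was in the library, as a file symbol or as a current symbol. The DNA methyltransferases that AZA traps were all 3 present. The edgeR test on summed counts called 0 of them, and DNMT1 alone had an unadjusted p under 0.05, beside the same shares of all genes. Their median was -0.16. DNMT1, the maintenance methyltransferase, had the highest value, 0.68 ± 0.27 SE (edgeR adjusted p = 0.338), with 393, 736 and 752 CPM untreated and 925, 1169 and 966 CPM under AZA. DNMT3B, a de novo methyltransferase, had the lowest, -0.25 ± 0.15 SE (edgeR adjusted p = 0.536).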

How the data were processed

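The authors amplified the guide strands from genomic DNA by PCR and deposited raw counts per hairpin, 1 file per sample. CASAVA 1.9 and GRCh37 are named in the submitters' processing notes. The counting program was not given in the sources used here. Molecular identifiers were absent from the counts, so intervals on shares cover counting error only. Hairpins absent from a file were set to 0.

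Groups and replicate numbers came from the sample titles. A minimum of 0.5 CPM in 3 or more libraries left 7262 hairpins, which were scaled with TMM factors and tested in edgeR 4.0.16 (R 4.3.3) by the quasi-likelihood method with treatment as its term. Gene values are the same test on counts summed over the hairpins of each gene, over all 912 genes. Benjamini-Hochberg adjustment ran over all features of a test. Fold changes are AZA over untreated; intervals use the fit's SE and t distribution. CPM printed per library are on file totals. The named genes were the 4 members, with fitted values for hairpins that moved one way in 3 of 3 cultures on file totals and for the lowest and highest of each gene, and the lowest and highest gene of each related list. Members and lists were chosen with earlier results of these data known. Other fits used DESeq2 1.42.0 and limma 3.58.1. The tests were checked on simulated data, drawn with the same spread for all hairpins and for both groups. All hairpins of a changed gene were moved by the same fold in the same direction. The hairpin test called 0% of the hairpins changed 2-fold, 0% of those changed 4-fold and 60.5% of those changed 16-fold. The gene test called 8% of the 25 genes changed 2-fold and 96% of those changed 4-fold, and it also called 1 and 2 unchanged genes. In the data the hairpins of one gene went both ways. The spread over all hairpins was larger without drug (median SD of log2 CPM 0.912 untreated and 0.556 under AZA). The simulated shares are therefore not rates for this screen. Even so, the lack of hairpin calls is no evidence that 2-fold or 4-fold changes were absent. By itself, the lack of gene calls is no evidence that 2-fold changes were absent either.

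Same numbers mark both arms of one culture. Deviations from the group means correlated at 0.125, 0.118 and 0.143 between same-numbered libraries and at -0.100 to -0.022 between others. Deviations within a group sum to 0, so the negative values follow in part from the positive ones. The positive values are small, and the pairing was taken from the replicate numbers and the split of each culture. The labels call the cultures triplicates of transduction.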

Additional observations from a re-analysis of the deposited data

How the results depend on the processing

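Among the log2 fold changes of the 4 genes and of the 13 hairpins given with a fitted value, 213 values under alternatives kept their direction and their side of the threshold, 10 turned and 2 passed, these being ADA.985 (-2.22) and HPRT1.692 (2.37) in the DESeq2 Wald test, which raised the hairpins called among the 32 from 0 to 2. CDA turned to 0.015 with library totals and to 0.19 with limma on mean log2 CPM, a setting that moved the median of all genes by 0.26, and ranged from -0.082 to 0.072 when 1 library was left out. DCTD ranged from -0.083 to 0.54 in this way. The mean over hairpins turned for CDA to 0.14 with library totals and 0.17 with the replicate block (-0.11 to 0.051 without 1 library) and for DCTD to -0.0095 with DESeq2 size factors (-0.18 to 0.62 without 1 library). These 2 settings, totals and block, moved the median of all hairpins by 0.16 and 0.18. HPRT1.1040 turned to 0.66 with the block and ranged from -1.45 to 1.76 without 1 library, and HPRT1.1216 from -0.32 to 0.63. Of the 4 genes, the replicate block gave -0.010 for CDA, 0.22 for DCTD, -0.25 for ADA and 0.56 for HPRT1 and changed no call. The cause of these shifts was not tested.

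All hairpins called numbered 5, and 13 with the edgeR exact test, 135 with the DESeq2 Wald test and 1 to 5 without 1 library. All genes called numbered 11, and 18, 53 and 5 to 16 in the same order. With TMM-normalized CPM, 9 of the 32 hairpins moved one way in 3 of 3 cultures in place of 8, with CDA.915 and ADA.808 gained and HPRT1.1216 lost. The number of cultures, 3 a group, limits the precision, and the 95% intervals of hairpins differed in width, from DCTD.1625 (-0.48 to 0.98) to DCTD.466 (-2.33 to 3.54).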
